A study of Daphnia magna with 27 samples.

Results

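The comparison described here sets the second generation of unexposed water fleas, CtrlF1, against the generation that bore it, CtrlF0. Daphnia magna is a small freshwater crustacean that reproduces clonally through most of its life, and all animals belonged to clone K6, a long-kept laboratory clone. Members were all reporters (spotted cDNA fragments) with a test statistic in the authors' deposited table of this contrast, which were 2226 of the 2261 reporters of the series. CtrlF1 daphnids were whole animals of 22 days and CtrlF0 daphnids were whole animals of 20 days, both raised without added zinc in a modified standard medium. CtrlF0 was the first generation in that medium, moved there as newborns from the stock culture, and CtrlF1 was born in it. The wider series held 9 groups of 3 samples, in which other lineages were kept at 388 µg/L zinc for 1 or more generations or returned to clean medium. Those used below are Zn(+)F1 (21 days, zinc medium, born to ZnF0 mothers), Zn(-)F1 (21 days, also born to ZnF0 mothers but raised without added zinc), CtrlF2 (20 days, the generation after CtrlF1, without added zinc) and ZnF0 (23 days, moved as newborns into zinc medium). Each sample pooled RNA of 10 adults, taken when the following generation was set up, and was hybridised on a two-colour array against a pool of differently aged daphnids. The sample RNA carried Cy5 on every CtrlF1 and CtrlF0 array.

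In clonal daphnids a mother carries each brood of embryos in a pouch and releases it at a moult, so an extract of whole adults holds RNA of ovary, developing eggs, gut, carapace-forming tissue and muscle together. Vitellogenin is the yolk precursor loaded into eggs, cyclins of the B type drive entry into mitosis, histone chaperones assemble nucleosomes on new DNA, and ferritin and metallothionein bind iron and other metals. In such extracts, fewer cells of a type and less RNA per cell cannot be told apart. Generation also cannot be told apart from the 2-day difference in age.

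Each array value was a log2 ratio of sample over reference pool, so 1 unit is a doubling. The CtrlF0 columns of replicates 1 and 3 were equal in 2065 of their 2066 shared values, with a largest gap of 0.00026, and were counted as 1 sample. CtrlF0 was therefore represented by 2 distinct samples and CtrlF1 by 3. The arrays gave values for 2066 to 2210 reporters, and their medians lay between -0.03 and 0.01. Across reporters, CtrlF1 replicates 2 and 3 correlated at r = 0.78 with each other, while replicate 1 correlated with them at 0.60 and 0.64. The 2 CtrlF0 samples correlated at 0.51, and the pairs of a CtrlF1 with a CtrlF0 sample at 0.05 to 0.43. CtrlF1 replicate 1 with CtrlF0 replicate 2 was the closest of these mixed pairs. The CtrlF1 arrays correlated more highly with the ZnF0 arrays, at 0.36 to 0.75 (median 0.60), than with the CtrlF0 arrays (median 0.13), while CtrlF0 with ZnF0 had -0.09 to 0.19 (median 0.01). All of these correlations are descriptions across reporters and share the reference pool. The labels name no hybridisation or extraction batch, and the study does not say whether the pools came from separate cultures, so the p-values may measure technical spread only.

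The number of reporters called between the generations depended on which deposited source was read. In the authors' deposited table, 557 of 2226 reporters (25%) passed an adjusted p of 0.05, with 269 (12.1%) higher and 288 (12.9%) lower in CtrlF1. In a limma fit to the 5 distinct arrays of the deposited value table, 0 of 1996 reporters with at least 2 values per group passed (0%), although 420 had an unadjusted p under 0.05 and the smallest adjusted p was 0.0598. The rises reached further than the falls, since 88 reporters (3.95%) were called and at least 1 log2 unit higher in the authors' deposited table, against 15 (0.674%) called and at least 1 unit lower. The median change over all tested reporters was 0.01 in the authors' deposited table and -0.01 in the value table.

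Both sources pointed the same way for nearly every called reporter. Over the 1996 reporters present in both, the CtrlF1 minus CtrlF0 difference correlated with the change in the authors' deposited table at r = 0.94, a figure across reporters measured partly or wholly on the same arrays. The sign was shared by 537 of the 538 called reporters that the value table fit could test. The CtrlF1 samples all lay above or all lay below both CtrlF0 samples in 443 of the 537 called reporters with complete values, beside 774 of all 1961 complete reporters (39.5%). Of those 774, 384 had CtrlF1 above and 390 had CtrlF1 below. The p-values of the authors' deposited table correspond to up to 19.2 degrees of freedom (median 18.2). Moderated t scores, as deposited, take in degrees of freedom shared across reporters beside those of the arrays. The sources used here do not state how many came from each, or whether arrays of other groups entered the fit.

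The call count from the value table rested on single samples. It came to 90 without CtrlF1 replicate 1 (78 higher and 12 lower), to 1 without CtrlF1 replicate 2, and to 0 without CtrlF1 replicate 3. Leaving out either distinct CtrlF0 sample left 1 CtrlF0 array, for which 1 value sufficed and which was assumed to vary like the CtrlF1 samples. Those fits called 0 of 2143 reporters without CtrlF0 replicate 1, which equals replicate 3, and 13 of 2042 without CtrlF0 replicate 2. Scaling the arrays to equal spread gave 94 calls, of which 92 were also called in the authors' deposited table, beside 538 of all 1996 fitted reporters. Of the 90 calls made without CtrlF1 replicate 1, 68 were among the 88 large rises of the authors' deposited table, which are 3.95% of its reporters. Both sources rest partly or wholly on the same arrays, so these overlaps are not independent support.

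**Figure D1:**
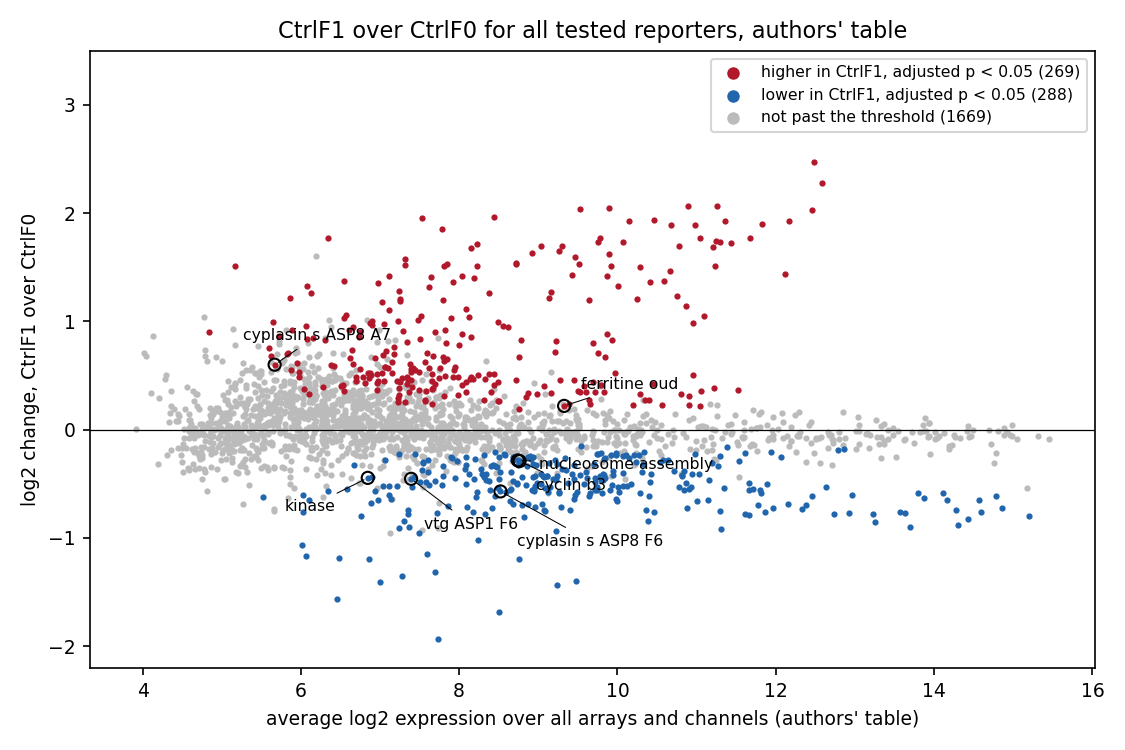
Log2 change of CtrlF1 over CtrlF0 in the authors' deposited table (vertical axis) against its average log2 expression (horizontal axis), 1 point per tested reporter. The 269 called rises are red, the 288 called falls are blue, and circles mark the 7 called reporters that carry a name. Rises of more than 1 unit run up to 2.47, while the falls gather between 0 and -1.

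By quartile of average expression, brighter reporters were called more often. The authors' deposited table called 28 of the 557 dimmest reporters (5.03%), followed by 98 of 556 (17.6%), 194 of 556 (34.9%) and 237 of 557 (42.5%) in the brighter quartiles. The median standard error of the change, taken as the authors' log2 change divided by their t, was 0.27 in the dimmest and 0.09 in the brightest quartile of the authors' deposited table. Direction shifted as well, since the dimmest quartile of that authors' deposited table held 22 rises and 6 falls, and the brightest 84 rises and 153 falls. Average expression in this table runs from 3.92 to 15.4 for tested reporters. The 35 untested reporters had a median of 4.93, and 7 of them carried a name.

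Only 40 reporters of the array carry a gene name, and 33 of these were tested. The authors' deposited table called 7 of the 33, with 2 rises and 5 falls in CtrlF1, a share near the 25% called over all tested reporters. The value table fit covered 25 of the 33 and called 0 (limma, adjusted p of 0.05). An average log2 expression under 6 was listed for 14 of the 33 in the authors' deposited table, and 1 of those 14 was called.

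**Figure D2:**
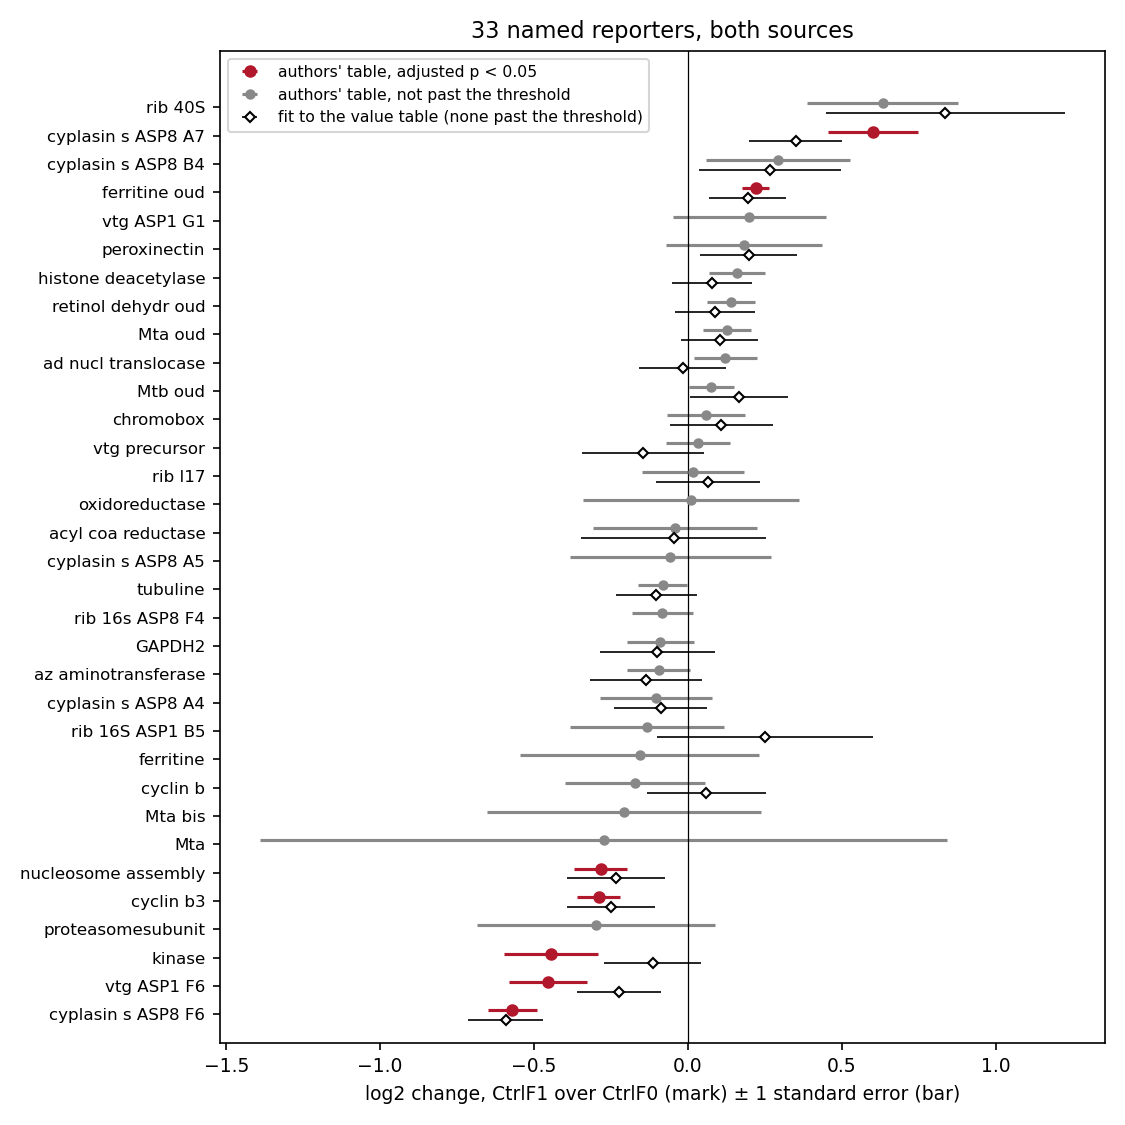
Log2 change of CtrlF1 over CtrlF0 for the 33 tested named reporters, ordered by the authors' deposited table, where red circles passed an adjusted p of 0.05 and grey circles did not. Open diamonds give the fit to the value table, and bars are 1 standard error in either direction. The 5 called falls lie between -0.57 and -0.28, and the 2 called rises are 0.22 and 0.60.

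Among egg and yolk reporters, 1 of 3 was called, too few to set against the 25% called over all tested reporters. The vtg reporter EBT_DamaRep_ASP1 F6, whose name is the usual abbreviation of vitellogenin, had log2 ratios of -0.18, -0.24 and -0.02 in CtrlF1, against 0.13 and 0.02 in CtrlF0. All CtrlF1 samples lay below both CtrlF0 samples, replicate 3 by a narrow margin. The authors' deposited table lists a fall of this vtg reporter, at -0.45 ± 0.13 (SE, adjusted p = 0.0107), while the value table gave -0.22 ± 0.14 (limma, adjusted p = 0.41).

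The brighter reporter vtg precursor did not follow it. Its log2 ratios were -0.42, 0.02 and 0.14 in CtrlF1, against 0.15 and -0.04 in CtrlF0, so that the groups overlapped. The authors' deposited table gave it a change of 0.03 ± 0.10 (adjusted p = 0.898). The third, dim vtg reporter EBT_DamaRep_ASP1 G1 had a change of 0.20 ± 0.25 in the authors' deposited table (adjusted p = 0.678) and a value on only 1 distinct CtrlF0 array. The yolk list thus had a median change of 0.03, beside 0.01 over all tested reporters of the authors' deposited table.

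Of 2 tested reporters of cell division and 3 of chromatin, 1 each was called, both as falls, beside 25% called and 12.9% called lower over all tested reporters. The cyclin b3 reporter, named for a mitotic and meiotic B-type cyclin, had log2 ratios of 0.20, -0.07 and -0.04 in CtrlF1, against 0.26 and 0.30 in CtrlF0. Replicate 1 lay close to the CtrlF0 samples and the other CtrlF1 samples well below them. In the authors' deposited table cyclin b3 fell by 0.29 ± 0.07 log2 units (adjusted p = 0.00371), with -0.25 ± 0.14 in the value table (limma, adjusted p = 0.375). The dim cyclin b reporter stood at -0.17 ± 0.23 (adjusted p = 0.695) in the authors' deposited table.

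The nucleosome assembly reporter, by its name a factor that places histones on DNA, likewise had CtrlF1 replicate 1 nearest to the CtrlF0 samples. Its log2 ratios were 0.18, -0.03 and -0.23 in CtrlF1, against 0.21 and 0.21 in CtrlF0. The authors' deposited table gave nucleosome assembly a fall, at -0.28 ± 0.09 (adjusted p = 0.0245), and the value table -0.23 ± 0.16 (limma, adjusted p = 0.466). Neither of the other 2 chromatin reporters was called in the authors' deposited table, with 0.16 ± 0.09 for histone deacetylase (adjusted p = 0.251), an enzyme that removes acetyl groups from histones, and 0.06 ± 0.13 for chromobox (adjusted p = 0.818).

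Metal-binding reporters gave 1 rise among 6 tested, a share near the 12.1% called higher over all tested reporters. The ferritine oud reporter, named for the iron-storage protein, had log2 ratios of 0.14, 0.05 and 0.07 in CtrlF1, against -0.07 and -0.14 in CtrlF0. The groups did not overlap and each spanned less than 0.1 unit. In the authors' deposited table ferritine oud rose by 0.22 ± 0.04 log2 units (adjusted p = 0.00057), a 1.16-fold difference, and the value table gave 0.19 ± 0.12 (limma, adjusted p = 0.435).

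The other ferritine reporters were dim. One, EBT_Dama_ferritine, had a change of -0.16 ± 0.39 (adjusted p = 0.846) in the authors' deposited table, and 2 more were untested. For Mta oud and Mtb oud, whose stems are commonly used for metallothioneins, the authors' deposited table gave 0.13 ± 0.08 (adjusted p = 0.294) and 0.08 ± 0.07 (adjusted p = 0.555). Mta and Mta bis had values on 1 CtrlF1 array only, and Mtb and Mtb bis were untested.

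The name cyplasin s, taken from a cytotoxic protein of the sea hare Aplysia, stands on 5 tested reporters that did not move together. The brightest of them, EBT_DamaRep_ASP8 F6, had log2 ratios of -0.54, -0.47 and -0.49 in CtrlF1, against 0.10 and 0.08 in CtrlF0. This was the tightest separation among the called named reporters relative to the spread within groups, with means of -0.50 ± 0.04 (SD, n = 3) in CtrlF1 and 0.09 ± 0.02 (SD, n = 2) in CtrlF0. In the authors' deposited table the change was -0.57 ± 0.08 log2 units (adjusted p = 1.4e-05), a level 0.673 times that of CtrlF0. The value table gave -0.59 ± 0.12 (limma, adjusted p = 0.061).

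The dimmer cyplasin s reporter EBT_DamaRep_ASP8 A7 went the opposite way. Its log2 ratios were -0.02, 0.18 and 0.22 in CtrlF1, against -0.10 and -0.35 in CtrlF0. The authors' deposited table gave this second reporter a rise of 0.60 ± 0.15 (adjusted p = 0.00604), with 0.35 ± 0.15 in the value table (limma, adjusted p = 0.253). The other 3 cyplasin s reporters had changes of -0.10, -0.06 and 0.29 in the authors' deposited table, none of them called. Whether the 5 reporters carry the same transcript cannot be read from the files, which hold no sequences. Peroxinectin, named for a cell-adhesion protein of crustacean haemocytes and the 1 haemocyte marker on the array, had 0.18 ± 0.25 in the authors' deposited table (adjusted p = 0.711).

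Among the 7 called named reporters, kinase alone had CtrlF1 and CtrlF0 samples that overlapped. The kinase reporter, for a signalling enzyme not further named, had log2 ratios of -0.07, -0.26 and 0.12 in CtrlF1, against 0.10 and -0.01 in CtrlF0, and the groups overlapped. Kinase fell by 0.45 ± 0.15 log2 units in the authors' deposited table (adjusted p = 0.0394), while the value table gave -0.11 ± 0.16 (limma, adjusted p = 0.727).

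**Figure D3:**
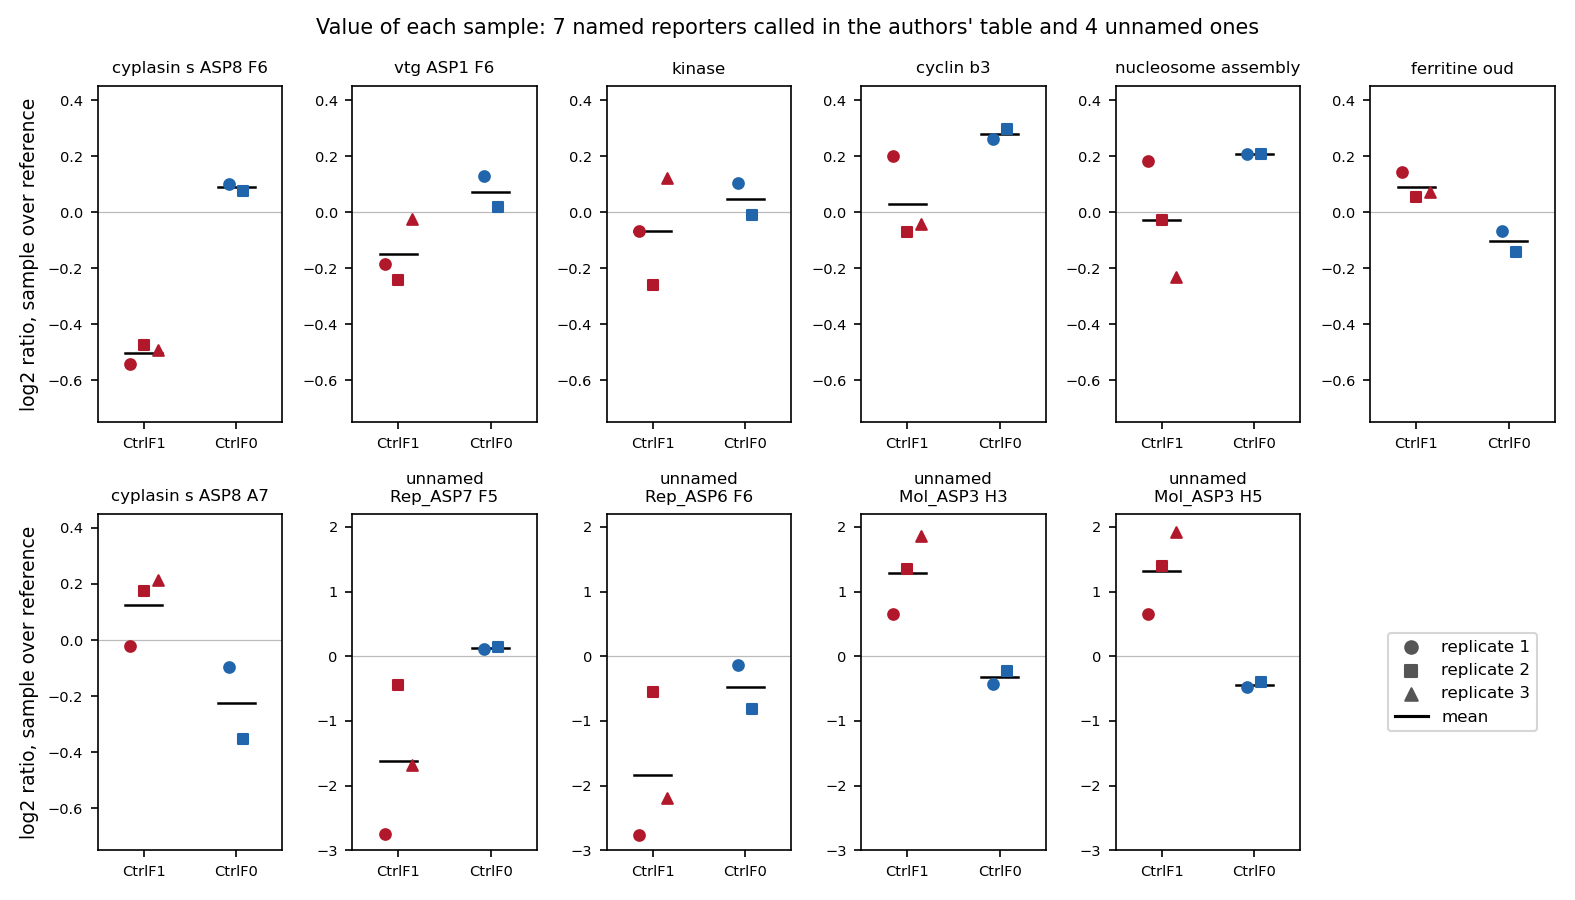
Log2 ratio of sample over reference pool in each of the 3 CtrlF1 and 2 distinct CtrlF0 samples for the 7 named reporters called in the authors' deposited table and for 4 unnamed reporters, with the group mean as a line. Named reporters share 1 vertical scale and unnamed reporters another. The CtrlF1 samples of cyplasin s ASP8 F6 lie between -0.54 and -0.47, below both CtrlF0 samples, and those of kinase overlap with CtrlF0.

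None of the 4 tested ribosomal reporters was called, nor were GAPDH2, tubuline and ad nucl translocase. These are too few to set against the 25% called over all tested reporters. The rib 16S reporter EBT_DamaRep_ASP1 B5, rib 40S and rib l17 were dim, with an average log2 expression of 4.98, 5.01 and 4.84. The rib 40S reporter, a small-subunit ribosomal component, had log2 ratios of 0.36, 0.69 and -0.05 in CtrlF1, against -1.13 and 0.13 in CtrlF0. Its change of 0.63 ± 0.25 in the authors' deposited table (adjusted p = 0.0676) was the largest among uncalled named reporters, and CtrlF0 replicate 1 stood alone at the low end. The authors' deposited table gave -0.08 ± 0.10 to the rib 16s reporter EBT_DamaRep_ASP8 F4 (adjusted p = 0.657), which was the brightest named one and had no value on either CtrlF0 array in the value table.

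GAPDH2, a glycolytic enzyme, had -0.09 ± 0.11 in the authors' deposited table (adjusted p = 0.657), and tubuline, the microtubule protein, had -0.08 ± 0.08 (adjusted p = 0.557). The ad nucl translocase reporter, for the carrier that exchanges ADP and ATP across the mitochondrial membrane, had 0.12 ± 0.10 in the authors' deposited table (adjusted p = 0.476). Of 15 keyword lists of gene function, 4 matched no name on the array (stress, cuticle and chitin, digestion, and spike-in and blank), and so did 4 of 6 lists of organ markers. The makeup of the animals by organ was therefore not tested.

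The 4 unnamed reporters with the largest called changes in each direction moved by 3-fold or more in the authors' deposited table. EBT_DamaMol_ASP3 H5 had log2 ratios of 0.66, 1.39 and 1.92 in CtrlF1, against -0.47 and -0.41 in CtrlF0. Every CtrlF1 sample was above both CtrlF0 samples, with replicate 1 lowest. Its rise in the authors' deposited table was 2.47 ± 0.34 log2 units (5.55-fold, adjusted p = 1.15e-05), and the value table gave 1.76 ± 0.34 (limma, adjusted p = 0.0598).

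Its neighbour in the numbering, EBT_DamaMol_ASP3 H3, had nearly the same values, with log2 ratios of 0.66, 1.35 and 1.85 in CtrlF1, against -0.42 and -0.23 in CtrlF0. Its rise in the authors' deposited table was 2.27 ± 0.32 log2 units (adjusted p = 1.95e-05). Both are bright, with an average log2 expression of 12.5 and 12.6 in the authors' deposited table.

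The largest fall, that of EBT_DamaRep_ASP7 F5, had log2 ratios of -2.75, -0.44 and -1.68 in CtrlF1, against 0.12 and 0.15 in CtrlF0. The authors' deposited table gave it a change of -1.93 ± 0.37 (adjusted p = 0.000499), with -1.76 ± 0.60 in the value table (limma, adjusted p = 0.16). EBT_DamaRep_ASP6 F6 had -2.76, -0.56 and -2.19 in CtrlF1, against -0.14 and -0.82 in CtrlF0. In both, CtrlF1 replicates 1 and 3 were far below the CtrlF0 samples and replicate 2 was nearer to them, for ASP6 F6 within their range. The authors' deposited table lists a fall of ASP6 F6, at -1.68 ± 0.23 (adjusted p = 1.62e-05). The value table gave -1.36 ± 0.62 (limma, adjusted p = 0.269), with -0.90 without CtrlF1 replicate 1 and -2.00 without CtrlF1 replicate 2, neither of them called.

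The 88 large rises also differed in size among the CtrlF1 samples, here with replicate 1 nearest to CtrlF0, which is described without a test because the reporters were picked by their change. In the 86 with complete values, CtrlF1 replicate 1 was the lowest CtrlF1 sample in 72 and replicate 3 the highest in 78. Their median log2 ratios were 0.59, 1.00 and 1.47 in CtrlF1 replicates 1, 2 and 3, against -0.46 and -0.36 in CtrlF0 replicates 1 and 2. All CtrlF1 samples were above both CtrlF0 samples in 83 of the 86, beside 384 of all 1961 complete reporters, and picking by change favours such separation. The median SD over these reporters was 0.50 in CtrlF1 and 0.17 in CtrlF0, beside 0.15 in each group over all complete reporters.

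The 15 large falls were less alike. Their median log2 ratios were -0.87, -0.55 and -0.75 in CtrlF1, against 0.12 and 0.15 in CtrlF0. In 13 of the 15 all CtrlF1 samples were below both CtrlF0 samples, beside 390 of all 1961 complete reporters. This set too was picked by its change, which favours such separation. Replicate 2 was the highest CtrlF1 sample in 10 of the 15.

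Both sets were followed on the 21 distinct arrays outside CtrlF1 and CtrlF0. These arrays may have entered the calls that chose the sets. The p-values behind those calls have a median of 18.2 degrees of freedom, whose origin is not stated. The sets are therefore not known to be independent of those arrays. The median pairwise correlation of reporters over those arrays was 0.73 among the 88 rises and 0.11 among the 15 falls, beside 0.26 over all tested reporters with at least 15 values. The arrays share the reference pool and differ in dye, which enters these correlations. The median log2 ratio of the 88 reporters was, in the sign as deposited, -1.64, 0.11 and -1.04 in Zn(+)F1, against 1.27, 0.61 and 1.22 in ZnF0. It lay between -1.49 and -1.32 in Zn(-)F1 and between -2.38 and -0.83 in CtrlF2. The sample RNA carried Cy3 on the arrays of Zn(+)F1 and Zn(-)F1 and on 2 of the 3 of CtrlF2, so dye and group cannot be told apart in the first 2 groups. Among arrays with the sample in Cy5, the lowest correlation across reporters was -0.32, between CtrlF2 replicate 3 and ZnF0 replicate 1. In the authors' deposited table the 88 had a median change of 1.51 for CtrlF1 over CtrlF0 (88 called higher), 1.49 for ZnF0 over CtrlF0 (86 called higher and 0 lower) and -0.80 for CtrlF2 over CtrlF0 (2 called higher and 43 lower). Over all reporters tested for CtrlF1 over CtrlF0, 373 of 2212 were called higher and 364 lower for ZnF0 over CtrlF0. For CtrlF2 over CtrlF0, 114 of 2226 were called higher and 164 lower. These comparisons share the CtrlF0 samples, so the values stand side by side only.

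**Figure D4:**
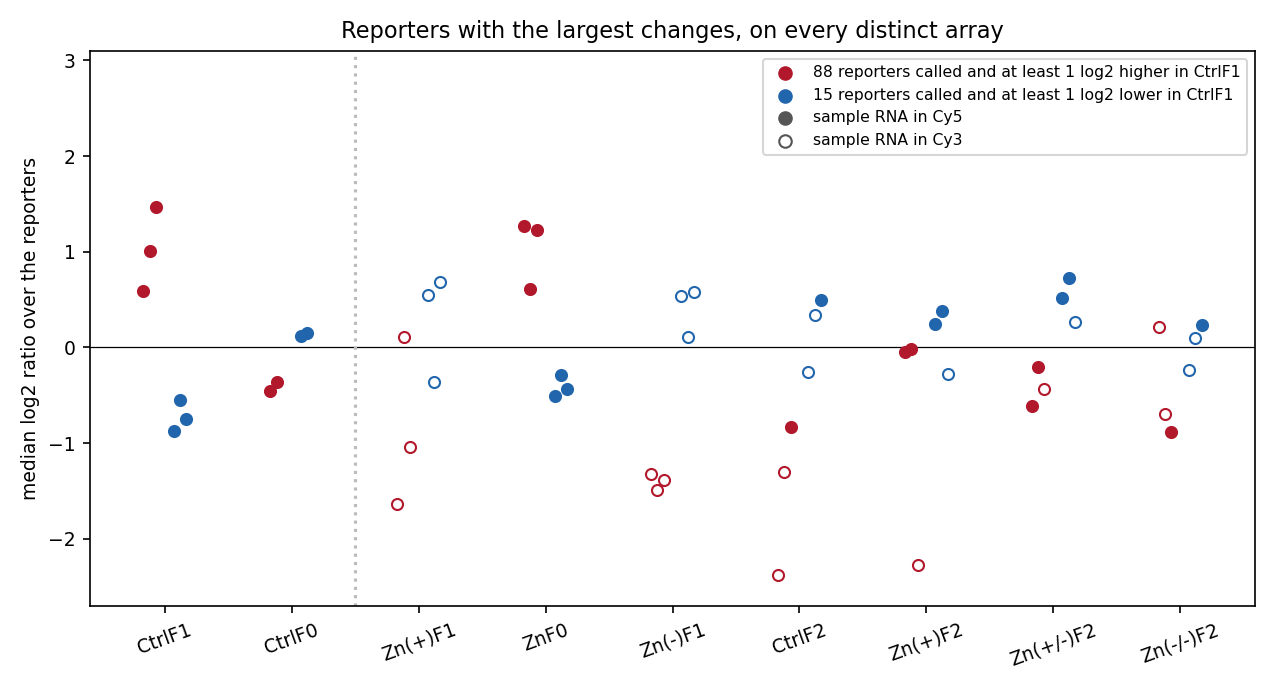
Median log2 ratio of sample over reference pool on each distinct array, for the 88 reporters called and at least 1 log2 unit higher in CtrlF1 (red) and the 15 called and at least 1 unit lower (blue), by group on the horizontal axis. Filled points have the sample RNA in Cy5 and open points in Cy3. The dotted line parts the groups whose change chose the reporters from the others, among which the red points of ZnF0 lie between 0.61 and 1.27. Ratios are drawn in the deposited sign, and the Cy3 points of Zn(+)F1 and Zn(-)F1 would lie on the other side of 0 with the sign turned, some of them above ZnF0.

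Among the brightest reporters, calls were mostly falls. Of 143 reporters with an average log2 expression of at least 12, the authors' deposited table called 28 lower and 5 higher in CtrlF1. Over all tested reporters 12.9% were called lower and 12.1% higher, and in the brightest quartile 27.5% and 15.1%. With 110 of the 143 uncalled, they were called less often than the brightest quartile as a whole (42.5%). The 28 had a median change of -0.71 in the authors' deposited table, and the 110 uncalled ones a median of -0.06. The median log2 ratio of the 28 was -0.56, -0.46 and -0.28 in CtrlF1, against 0.27 and 0.13 in CtrlF0. All 22 with complete values had every CtrlF1 sample below both CtrlF0 samples, beside 390 of all 1961 complete reporters. For ZnF0 over CtrlF0, which shares the CtrlF0 samples, the authors' deposited table also called all 28 lower, beside 364 of all 2212 reporters. Their median there was -0.73. For CtrlF2 over CtrlF0 it called 2 of the 28 lower and 1 higher, with a median of -0.08. These shares are near the 164 lower and 114 higher of all 2226 reporters. This set was also picked by its change and carries no test, and none of the 28 has a name.

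Direction varied with the identifier of the spotted fragment. Identifiers carry a token (Ene, Mol or Rep) that no label explains, and a number after ASP. Among Mol reporters 120 of 753 were higher (15.9%) and 77 lower (10.2%) in CtrlF1 in the authors' deposited table. Among Rep reporters 40 of 715 were higher (5.59%) and 108 lower (15.1%). Ene reporters were balanced, with 108 higher (14.4%) and 103 lower (13.7%) of 751 in the authors' deposited table. Over all tested reporters the shares were 12.1% higher and 12.9% lower.

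That balance was the sum of opposite parts. Ene reporters with an ASP number up to 4 had 79 rises (21.2%) and 23 falls (6.17%) among 373 in the authors' deposited table. Those with a later number had 29 rises (7.67%) and 80 falls (21.2%) among 378, beside 12.1% and 12.9% over all tested reporters. The later ones were brighter, with a median average expression of 8.35 against 7.36 for the earlier ones. Within the brighter 2 quartiles of all reporters the later Ene fragments still had 24 rises and 74 falls of 249 in the authors' deposited table. The earlier ones had 51 rises and 22 falls of 186. Over all reporters, 16.4% rose and 18.5% fell in the less bright of these quartiles, and 15.1% and 27.5% in the brightest. All 3 CtrlF1 medians of the earlier Ene reporters lay between 0.14 and 0.15, against 0.05 and 0.01 in CtrlF0. The later Ene reporters had medians of 0.04, 0.00 and 0.00 in CtrlF1, against 0.17 and 0.09 in CtrlF0. The groups did not overlap in either part, and the parts moved in opposite directions. The division at ASP number 4 was made after seeing the values and carries no test, and whether spotting position moves with it was not tested.

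**Figure D5:**
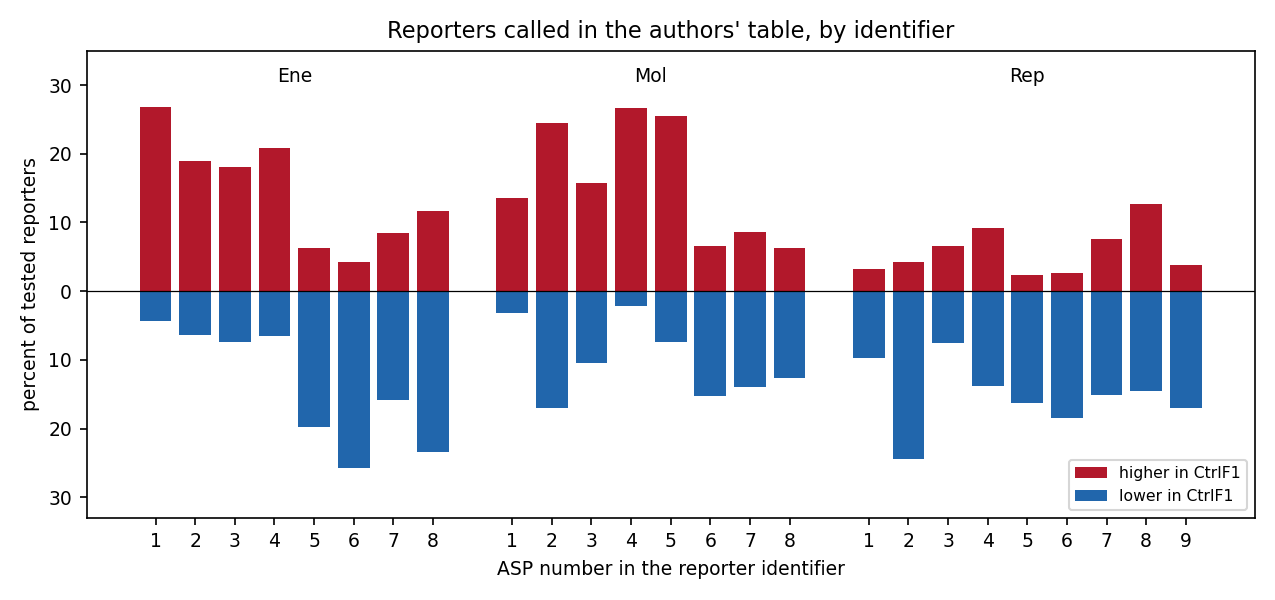
Percent of tested reporters called in the authors' deposited table as higher (red, upward) or lower (blue, downward) in CtrlF1, by token and ASP number of the identifier. Rises outnumber falls in 9 of the 25 blocks and falls outnumber rises in 16, among them all 9 Rep blocks.

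Generation was also compared between lineages, with the test of the difference itself. In a limma fit to all distinct arrays with a dye term, 318 of 1962 reporters (16.2%) had a generation change in the zinc lineage, Zn(+)F1 minus ZnF0, that differed from CtrlF1 minus CtrlF0. The zinc lineage alone had 350 of 2165 called (16.2%), 323 higher and 27 lower in Zn(+)F1. Without the dye term these were 179 and 114, and the zinc lineage then split into 55 higher and 59 lower. The dye term was estimated within the groups that hold both dyes. Over all tested reporters, array medians were -0.34 and -0.31 (Cy3) and 0.34 (Cy5) in CtrlF2. In Zn(+)F2 (21 days, zinc medium) they were 0.31 and 0.32 (Cy5) and -0.40 (Cy3). They lay between -0.01 and 0.03 in Zn(+/-)F2 and Zn(-/-)F2 (22 days, no added zinc), and between -0.03 and 0.07 in Zn(+)F1 and ZnF0. What this offset adds to the counts was not tested. The contrast also differs in age, which was 2 days more in CtrlF1 than in CtrlF0 and 2 days less in Zn(+)F1 than in ZnF0. Zn(+)F1 replicates 1 and 3 correlated with ZnF0 at -0.38 to -0.17 across reporters, and their ratio's direction relative to the Cy5 arrays is not settled by the labels. With the Zn(+)F1 sign turned, 259 reporters differed between lineages and 370 were called in the zinc lineage (315 higher and 55 lower). Zn(+)F1 replicate 2 had 886 values, against at least 2066 on every other array.

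Of the 25 named reporters in the lineage fit, cyplasin s EBT_DamaRep_ASP8 F6 alone passed the test of a difference between lineages. That is a smaller share than the 16.2% over all reporters of the same fit. Its log2 ratios were 0.29 and -0.03 in Zn(+)F1 replicates 1 and 3, against -0.69, -0.60 and -0.48 in ZnF0. The difference of the lineages was 1.73 (limma, adjusted p = 0.000538), and 1.47 with the Zn(+)F1 sign turned (limma, adjusted p = 0.00215). The corresponding values in the control lineage, -0.50 in CtrlF1 and 0.09 in CtrlF0 on average, ran the opposite way.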

How the data were processed

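Per the labels' protocols, total RNA of pooled whole daphnids was labelled by amino-allyl coupling and hybridised on spotted cDNA arrays. The authors deposited a table of log2 ratios per array and 4 limma tables with log2 changes, moderated t scores, p-values and adjusted p-values, per the file headers. limma is named in the submitters' processing notes without a version. For background correction, normalization and spot averaging nothing is stated in the sources used here. The scale of the value table is unstated. Its differences follow the deposited log2 changes, so it was read as log2 of sample over reference pool. The direction CtrlF1 over CtrlF0 rests on the name of the deposited table and this match.

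Equal CtrlF0 columns were averaged. limma 3.58.1 (R 4.3.3) was fitted to the CtrlF1 and CtrlF0 arrays, with at least 2 values per group and Benjamini-Hochberg adjustment, and called at an adjusted p of 0.05. The lineage fits used all distinct arrays with group means and a dye term, and left out reporters without enough values. The scripts were tested on simulated data. Standard errors for the deposited table are the authors' change divided by their t. The deposited table's calls were counted at the same threshold, and also at 0.01 and at 1 log2 unit. Array number limits the precision. Members and keyword lists were chosen with earlier results of these data known.

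Every tested reporter with a gene name could be named, and of the unnamed ones the 2 largest rises and 2 largest falls called in the authors' table, since the value table fit called none. Cyplasin s, vtg and the other named reporters were adjusted over all reporters. Replicate numbers were not shown to pair the samples, since the deviations of CtrlF1 and CtrlF0 samples correlated at -0.06 to 0.06 and only 2 CtrlF0 samples are distinct. Alternatives were 16 for the value table, 4 for the deposited table, 12 for the zinc lineage and 18 for the difference of the lineages.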

Additional observations from a re-analysis of the deposited data

Results flagged for a closer look

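The test of the difference between lineages itself marked 318 of 1962 reporters (16.2%), among them 1 of the 25 named and 2 of the 4 unnamed ones described above. For cyplasin s (EBT_DamaRep_ASP8 F6), the generation change in the zinc lineage minus that in the control lineage was 1.73 on the log2 scale, and it passed the threshold under all 17 settings run (2 of them the same fit, without CtrlF0 replicate 1 or 3, as also in the counts of settings below), between 1.31 and 1.79. EBT_DamaMol_ASP3 H5 had a difference of -5.23 (limma, adjusted p = 0.0296), which passed the threshold under 8 of 15 settings. Its log2 ratios were -4.32 and -2.02 in Zn(+)F1 replicates 1 and 3, against 0.99 and 1.89 in ZnF0 replicates 2 and 3, with no value on the other array of either group. EBT_DamaRep_ASP7 F5 had a difference of 4.92 (limma, adjusted p = 0.0018), with log2 ratios of 1.65 and 1.42 in Zn(+)F1 replicates 1 and 3, against -1.30, -0.44 and -0.34 in ZnF0. It passed under 16 of 17 settings, and with the Zn(+)F1 sign turned was 1.86 (limma, adjusted p = 0.176). The dye of the sample RNA was Cy3 in Zn(+)F1 and Cy5 in ZnF0, and the part of dye in these differences beyond the fitted term was not tested.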

How the results depend on the processing

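Of the 16 alternatives of the CtrlF1 against CtrlF0 fit to the value table, 9 called 0 reporters like the fit reported (leaving out CtrlF0 replicate 1 or 3 is the same fit and is counted under both), among them the replicate block, all arrays with a dye term, median centring, complete values, no dim reporters and robust variances. Scaling the arrays to equal spread gave 94 calls. Leaving out 1 sample gave 0 to 90, and leaving out CtrlF0 leaves that group 1 array, assumed to vary like the others. Chosen after seeing the data, counting both equal CtrlF0 columns as samples gave 335 calls, the same with a replicate block 241, and an adjusted p of 0.1 gave 191 (107 higher and 84 lower). With the block the zinc lineage had 296 calls and the difference of the lineages 260, EBT_DamaMol_ASP3 H5 no longer passed (-5.09, limma, adjusted p = 0.0556), and the numbers are not shown to pair the samples. The deposited table had 409 to 564 calls under 3 alternatives, against 557, and 103 with a change of at least 1 log2 unit. Without a dye term the zinc lineage had 114 calls and the difference of the lineages 179 (88 higher and 91 lower, against 253 and 65 with it), and from the compared groups' arrays alone the zinc lineage had 300 (135 higher and 165 lower) and the difference 430 (213 higher and 217 lower). Median centring gave the zinc lineage 226 (147 higher and 79 lower). Leaving out 1 array gave 118 to 322 for the zinc lineage, with 118 and 156 without Zn(+)F1 replicates 1 and 3, and 213 and 176 without ZnF0 replicates 1 and 3. For the difference it gave 113 to 324, with 113 and 137 without Zn(+)F1 replicates 1 and 3, and 187 without CtrlF0 replicate 1. The cause of these moves was not tested. With the Zn(+)F1 sign turned, the difference of EBT_DamaMol_ASP3 H5 was 1.11 and no longer called (limma, adjusted p = 0.687). Single reporters of the value table passed the threshold in 12 pairs of reporter and alternative, all in the reported direction, and kept their side of it in the other 410. With the pairs of the deposited table included, 26 uncalled values changed sign over 482 pairs.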
